A study of Homo sapiens with 6 samples.

Results

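AADACL3, ANGPTL4, FAM71F1, GRPR, A2ML1 and A4GALT are 6 of the 27672 genes in the RNA-seq table of a study that took human embryonic stem cells (hESCs) towards the spinal cord, and all 6 were among the 15517 genes with enough reads to be tested. They were chosen by their expected counts and TPM, as little-studied genes whose transcripts were lost between hESCs and day 3 of differentiation. The values that chose them are therefore the same values that are described here, and no test is given for them. The label of steep falls held for AADACL3, ANGPTL4, FAM71F1 and GRPR, which kept 1.09% to 3.26% of their hESC level. It held less for A2ML1, which kept 20.7%, and for A4GALT, which kept 35.9%.

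Polyadenylated RNA was sequenced in 3 biological replicates of undifferentiated H9 cells, an established hESC line, on day 0 and in 3 of NMP-L cells (neuromesodermal progenitor-like cells) on day 3. Per the labels, the hESCs grew on fibronectin in DEF medium with bFGF at 30 ng/ml and Noggin, a BMP antagonist, at 10 ng/ml. The NMP-L cells came from the same line after 3 days in N2/B27 medium with bFGF at 20 ng/ml and CHIR99021, a GSK3 inhibitor that activates Wnt signalling, at 3 µM. The study's methods describe no RNA-seq experiment. For the other assays they give hESCs in TESR medium on Geltrex. There the differentiating cells also received Noggin and the TGFβ receptor inhibitor SB431542 from shortly before day 3, and bFGF and CHIR99021 were removed to make neural progenitors. Whether this applied to the 6 libraries is not stated. The column names mark all 6 libraries as WT, and the labels name no genetic change and no further inhibitor. All libraries come from 1 cell line, and nothing in the labels pairs the replicates of the conditions.

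The 6 genes work in different pathways. AADACL3 belongs to the arylacetamide deacetylase branch of the carboxylesterase-like hydrolases. ANGPTL4 is a secreted glycoprotein that inhibits lipoprotein lipase and is a classic target of PPAR nuclear receptors and of the hypoxia response. FAM71F1, now named GARIN1B, encodes a protein of the Golgi-associated RAB2 interactor family, best known from testis. GRPR is the G protein-coupled receptor for gastrin-releasing peptide, a neuropeptide of the bombesin family. A2ML1 is a broad protease inhibitor of the alpha-2-macroglobulin family, best known from stratified skin. A4GALT adds galactose to lactosylceramide to make Gb3, the entry point of the globo-series glycolipids, which include the SSEA-3 and SSEA-4 antigens long used to recognise human pluripotent cells.

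The genes lie on 6 chromosomes. On GRCh37 and in the GENCODE annotation, AADACL3 spans chr1:12776113-12788727, ANGPTL4 chr19:8428173-8439254, FAM71F1 chr7:128349115-128371797, GRPR chrX:16141688-16171641 and A2ML1 chr12:8975217-9039597, all on the plus strand, and A4GALT spans chr22:43088127-43117304 on the minus strand. All are annotated as protein coding. The promoters of AADACL3, ANGPTL4, GRPR and A4GALT are printed because they include the lowest (AADACL3) and highest (A4GALT) CpG content found for the 6 genes and hold most of the motifs described below. Each is the 250 bases before a RefSeq transcription start, read 5′ to 3′ on the gene's own strand, from the RefSeq promoter table and located in GRCh37 by its sequence. Capitals mark matches, on either strand, to a TATA box (TATAAA), a GC box (GGGCGG) or the core of the hypoxia response element (ACGTG), and the other letters are in lower case.
AADACL3, chr1:12775863-12776112, plus strand: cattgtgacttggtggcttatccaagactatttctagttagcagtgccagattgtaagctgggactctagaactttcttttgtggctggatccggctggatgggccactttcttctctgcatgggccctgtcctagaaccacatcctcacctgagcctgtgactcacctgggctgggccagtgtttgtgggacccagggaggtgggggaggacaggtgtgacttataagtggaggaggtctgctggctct
ANGPTL4, chr19:8428789-8429038, plus strand: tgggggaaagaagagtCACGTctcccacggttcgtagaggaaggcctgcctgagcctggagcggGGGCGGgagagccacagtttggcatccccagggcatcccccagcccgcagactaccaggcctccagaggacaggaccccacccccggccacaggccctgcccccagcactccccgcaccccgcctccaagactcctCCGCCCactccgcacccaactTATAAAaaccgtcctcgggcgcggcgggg
GRPR, chrX:16141438-16141687, plus strand: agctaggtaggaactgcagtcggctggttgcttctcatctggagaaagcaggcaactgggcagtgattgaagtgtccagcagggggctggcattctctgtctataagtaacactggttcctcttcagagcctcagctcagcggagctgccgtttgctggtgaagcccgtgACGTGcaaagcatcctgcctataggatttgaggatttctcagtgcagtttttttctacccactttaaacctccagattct
A4GALT, chr22:43116877-43117126, minus strand: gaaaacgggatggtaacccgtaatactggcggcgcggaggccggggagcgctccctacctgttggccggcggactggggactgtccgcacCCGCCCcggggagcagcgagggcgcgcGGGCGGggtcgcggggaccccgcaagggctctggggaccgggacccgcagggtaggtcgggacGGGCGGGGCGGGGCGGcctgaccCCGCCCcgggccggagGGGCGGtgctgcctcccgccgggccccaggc

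The promoters differed widely. The A4GALT window was 79.2% G and C, against a median of 58.0% over 35114 RefSeq promoter windows of the same length, and its ratio of observed to expected CpG was 0.862, against a median of 0.558. It held 7 GC boxes, of which 3 in a row overlapped each other by a base. The ANGPTL4 window, at 68.8% G and C, held a TATA box from 29 to 24 bases before the start, 2 GC boxes and the hypoxia core from 234 to 230 bases before it. The GRPR window (50.8% G and C) held the hypoxia core from 80 to 76 bases before the start. The AADACL3 window (54.0% G and C) had a CpG ratio of only 0.056 and no match to any motif searched. Of the windows not printed, that before the upstream start of A2ML1 held a TATA box from 31 to 26 bases before the start, and that before the upstream start of FAM71F1 a CCAAT box from 77 to 73 bases before it. The window before the other start of A2ML1 held the hypoxia core on both strands, as CACGTG from 166 to 161 bases before the start, and the window before the other start of A4GALT held 3 CCAAT boxes and a GC box. Among all windows, 10.7% held TATAAA, 32.0% CCAAT, 42.6% GGGCGG and 18.5% ACGTG. The TCF/LEF motif CTTTGAT (2.26% of all windows) and the octamer ATGCNAAT (2.69%) were searched on both strands and had no match in the windows of the 6 genes, nor did the PPAR direct repeat of type 1 (0.0171%). A match is only a run of letters, and the absence of a match concerns this window alone.

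The RNA-seq libraries were of even depth. Expected counts, which are the reads that RSEM assigned to each gene, summed to between 19454543 and 23036426 per library. At that depth 3 counts, taken as the smallest detectable amount, corresponded to between 0.125 and 0.160 CPM, the count per 1000000 reads after TMM scaling. The cell identities were checked with marker genes. Of 8 hESC markers, 7 were lower in NMP-L cells at an adjusted p under 0.05 in edgeR's quasi-likelihood test, with LIN28A not past the threshold, and their summed level was 9745 to 9923 CPM on day 0 and 5548 to 5962 CPM on day 3. Of 8 NMP markers, 7 were higher and FGF17 was lower, and their sum was 7.97 to 9.86 CPM on day 0 and 106 to 141 CPM on day 3. Markers of other cell types were also read. Of 10 surface ectoderm and amnion markers only 3 had enough reads to test (2 higher, 1 lower), and TFAP2B and KRT5 were at 0 in all libraries. Of 6 fibroblast markers 3 were tested, and these (COL1A1, COL1A2 and POSTN) were lower in NMP-L cells. The list summed to 1127 to 1284 CPM on day 0 and 170 to 186 CPM on day 3. Of its untested genes, LUM and DCN had no counts in hESCs and at most 1 in any library, and COL3A1 had at most 5. Of 8 endoderm markers 3 were tested (2 higher, 0 lower), of 8 paraxial mesoderm markers 4 (1 higher, 2 lower) and of 7 neural progenitor markers 1, which was higher. The part of other cell types in the falls of the 6 genes was not tested. In bulk RNA, fewer cells of a type and less RNA per cell cannot be told apart.

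All 6 genes were lower in NMP-L cells by at least 2-fold, which was the case with a passed test for 9.18% of the 15517 tested genes, and every NMP-L library lay below every hESC library for each of them, as it did for 29.5% of tested genes. Since the falls chose the genes, these shares are background only. The median log2 fold change (NMP-L minus hESC) was -5.06 over the 6 genes and 0.03 over all tested genes.

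AADACL3 had 294, 278 and 269 expected counts in hESC replicates 1 to 3 and 3, 2 and 6 in NMP-L replicates 1 to 3. The hESC libraries were all alike and the NMP-L libraries were near the detection floor. Its scaled level fell from 14.7 ± 0.891 to 0.160 ± 0.0808 CPM (SD, n = 3 each), a log2 fold change of -6.44, or 86.6-fold lower. Its 11 reads in all NMP-L libraries together had a 95% Poisson interval of 5.49 to 19.7, which covers counting error only.

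ANGPTL4 had 192, 194 and 204 expected counts in hESCs and 4, 9 and 4 in NMP-L cells. The hESC libraries were close together, and NMP-L replicate 2 had the most reads of the NMP-L libraries. Its level fell from 10.3 ± 0.337 to 0.258 ± 0.148 CPM (SD, n = 3 each), 39.7-fold (log2 fold change -5.31). FAM71F1 had 186, 230 and 192 expected counts in hESCs and 10, 4 and 5 in NMP-L cells. Here hESC replicate 2 was the highest and NMP-L replicate 1 kept the most reads, and the groups were far apart. Its level fell from 10.6 ± 1.07 to 0.283 ± 0.144 CPM (SD, n = 3 each), 36.7-fold (log2 fold change -5.20).

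GRPR had 711, 418 and 607 expected counts in hESCs and 16, 20 and 31 in NMP-L cells. It was the most variable of the 6 genes between hESC libraries, with replicate 2 well below the others, yet the lowest hESC library still stood 16.6 times above the highest NMP-L library in CPM. Mean levels were 30.4 ± 8.31 CPM on day 0 and 0.989 ± 0.290 CPM on day 3 (SD, n = 3 each), 30.3-fold apart (log2 fold change -4.92). Its 67 NMP-L reads (95% Poisson interval 51.9 to 85.1) place GRPR clear of the detection floor in NMP-L cells.

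A2ML1 had 639, 616 and 745 expected counts in hESCs and 163, 159 and 161 in NMP-L cells. The NMP-L libraries were nearly the same and clearly above the floor, so that the transcript was reduced and not lost. The level was 34.9 ± 3.66 CPM on day 0 and 7.21 ± 0.436 CPM on day 3 (SD, n = 3 each), 4.84-fold lower (log2 fold change -2.28). A4GALT had 532, 527 and 624 expected counts in hESCs and 250, 221 and 236 in NMP-L cells. The groups did not overlap, but the distance between them was the smallest of the 6 genes. Its level fell from 29.4 ± 2.86 to 10.5 ± 0.680 CPM (SD, n = 3 each), 2.79-fold (log2 fold change -1.48), and relative to GAPDH counts the change of A4GALT was under 2-fold (log2 fold change -0.92).

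**Figure D1:**
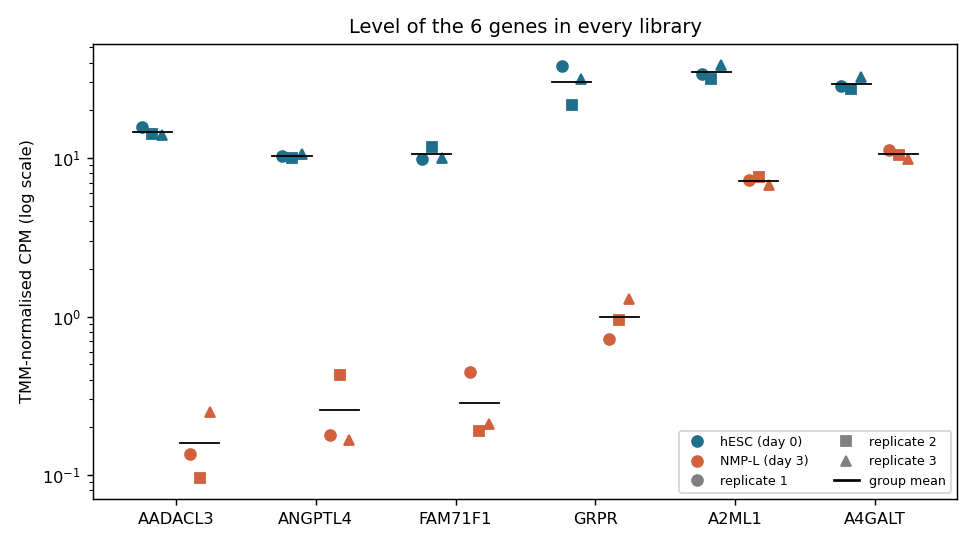
TMM-normalised CPM (log axis) of the 6 genes in each of the 3 hESC libraries (blue, day 0) and 3 NMP-L libraries (orange, day 3), with symbols for replicates and black lines at the group means. AADACL3, ANGPTL4 and FAM71F1 lay between 0.0953 and 0.449 CPM in NMP-L cells, near the detection floor of 0.125 to 0.160 CPM, whereas A2ML1 and A4GALT stayed between 6.73 and 11.2 CPM.

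The order of the genes by abundance is best read in TPM, which the authors' software scales by transcript length. In hESCs A4GALT had 29.1 ± 3.42 TPM, GRPR 23.5 ± 6.82, A2ML1 14.4 ± 1.70, FAM71F1 12.8 ± 1.13, ANGPTL4 11.4 ± 0.549 and AADACL3 7.41 ± 0.604 TPM (SD, n = 3 each). Neighbours in this order overlapped from A4GALT down to FAM71F1, whereas FAM71F1, ANGPTL4 and AADACL3 did not overlap each other. None was a leading transcript of the stem cells. Among genes with a TPM above 0 in hESCs, they stood between the percentiles 51.1 (AADACL3) and 75.8 (A4GALT). In NMP-L cells A4GALT had 11.0 ± 0.428 TPM, A2ML1 3.22 ± 0.172, GRPR 0.820 ± 0.269, FAM71F1 0.373 ± 0.180, ANGPTL4 0.370 ± 0.151 and AADACL3 0.0933 ± 0.0513 TPM (SD, n = 3 each). GRPR thus passed from above A2ML1 to below it. The 6 genes together summed to 98.5 TPM in hESCs and 15.8 TPM in NMP-L cells.

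Among the tested genes that averaged 10 CPM or more in hESCs and fell past the threshold, 2871 in all, AADACL3 had the steepest fall. CYP26A1, which breaks down retinoic acid, came next (log2 fold change -5.67), followed by ANGPTL4, FAM71F1 and GRPR. ACTN3, a muscle alpha-actinin, stood just after GRPR at -4.91, and FOXD3, a transcription factor of pluripotent and neural crest cells, followed at -4.85. GRPR and ACTN3 thus lay closer together than the spread of GRPR between its replicates. A2ML1 ranked 99, between the receptor tyrosine kinase AXL (-2.28) and RAB20 (-2.26), and A4GALT ranked 281, between ACOT8 (-1.49) and HRASLS5 (-1.48). Over all 15517 tested genes, 0.148% fell by at least as much as GRPR and 4.99% by at least as much as A4GALT. Without the limit of 10 CPM, AADACL3 ranked 3, ANGPTL4 15, FAM71F1 18 and GRPR 23. DPPA5, at 9.50 CPM in hESCs just under that limit, fell further than AADACL3 (log2 fold change -8.05). These ranks describe the falls that chose the genes.

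**Figure D2:**
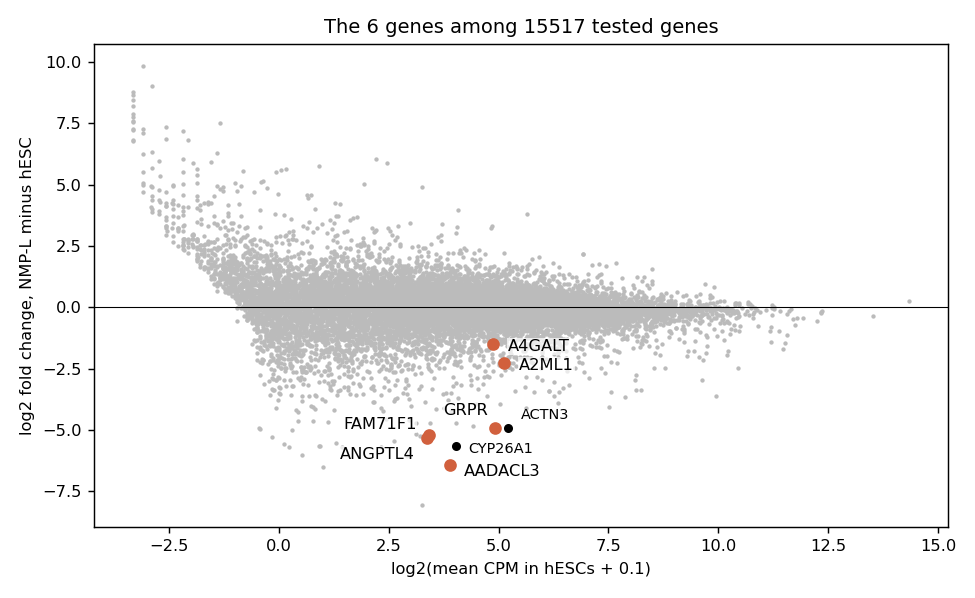
Log2 fold change (NMP-L minus hESC) of each of the 15517 tested genes (grey) against its mean hESC level as log2(CPM + 0.1), with the 6 genes in orange and CYP26A1 and ACTN3 in black. AADACL3, ANGPTL4, FAM71F1 and GRPR lie between -6.44 and -4.92 at the lower edge of the cloud, and A2ML1 (-2.28) and A4GALT (-1.48) lie close to its body.

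The spread between the hESC replicates does not use the contrast with day 3. The coefficient of variation was 3.28% for ANGPTL4, 6.07% for AADACL3, 9.73% for A4GALT, 10.1% for FAM71F1, 10.5% for A2ML1 and 27.3% for GRPR, and the median over all tested genes was 10.0%. GRPR was therefore the only one of the 6 well above this median. In hESC replicate 2, 4 of the 6 genes (ANGPTL4, GRPR, A2ML1 and A4GALT) had their lowest hESC level, which was so for 36.8% of all tested genes.

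The genes whose profiles over the 6 libraries were most like those of the members were found by the distance between log2(CPM + 0.1) values centred on each gene, among 14150 genes. For AADACL3 the nearest was DPPA5, an RNA-binding protein of pluripotent cells, at a distance of 0.858, followed by MYCT1 (1.25) and LINC01844 (1.48). For ANGPTL4 the nearest were MYCT1 (0.709), the chemokine CCL26 (0.769) and BNC1 (0.785). FAM71F1 was nearest to INHBA, which encodes a subunit of activin A, at 0.360, and then to ACTN3 (0.467) and FOXD3 (0.782). GRPR was nearest to the sodium-calcium exchanger SLC8A3 (0.661), CCL26 (0.757) and LINC01844 (0.772). A2ML1 was nearest to AXL (0.149), NPAS1 (0.171) and ADAMTS4 (0.207), and A4GALT to ZBTB46 (0.104), TLCD2 (0.114) and SYT6 (0.138). Distances were smallest for A2ML1 and A4GALT, which kept the most reads on day 3. They describe 6 libraries that fall into 2 groups, and carry no statement about shared function.

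The ratio of expected count to TPM gives the effective transcript length that the authors' software used, which moves when the estimated mixture of transcripts moves. It was expressed relative to the library's median and read only where a library had at least 10 counts of the gene. The transcript numbers given here are from GENCODE, and the annotation that RSEM used is not known. GRPR, with a single transcript in GENCODE, had 0.821 ± 0.00118 in hESCs and 0.822 ± 0.000363 in NMP-L cells (SD, n = 3 each). A4GALT, with 7 transcripts in GENCODE, had 0.639 ± 0.00687 in hESCs and 0.651 ± 0.00110 in NMP-L cells (SD, n = 3 each). The A4GALT ranges, 0.632 to 0.644 and 0.649 to 0.652, did not overlap, although the difference is small, and with 3 libraries a group the smallest p that exact permutation allows is 0.1. A2ML1 had 1.54 ± 0.0521 and 1.52 ± 0.0577 (SD, n = 3 each), which overlapped. The scale depends on the reference genes. With at least 1000 counts required of them, hESC and NMP-L means were 0.739 and 0.739 for GRPR, 0.576 and 0.585 for A4GALT and 1.39 and 1.36 for A2ML1. The A4GALT ranges, then 0.568 to 0.580 and 0.584 to 0.586, still did not overlap. For ANGPTL4 in NMP-L cells, 4 counts gave 0.42 TPM in replicate 1 and 0.20 TPM in replicate 3, so single TPM values at this depth also carry the transcript assignment.

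To place each fall in its surroundings, the nearest pair of protein-coding genes on each side of each member was read. Of these 24 neighbours, 16 were tested, 8 were lower and 2 higher in NMP-L cells, with a median log2 fold change of -0.19, where 26.7% of all tested genes were lower and 29.1% higher. Near AADACL3, DHRS3, a retinaldehyde reductase that lies 97897 bases away, had 811, 993 and 917 counts in hESCs and 267, 259 and 207 in NMP-L cells. DHRS3 was lower by a log2 fold change of -2.11 (SE 0.14, edgeR adjusted p = 2.27e-07), whereas AADACL4, the family member next to AADACL3, had at most 1 count in any library. Near A2ML1, the polycomb subunit gene PHC1 had 21726, 22225 and 24864 counts in hESCs and 7949, 7124 and 8137 in NMP-L cells (log2 fold change -1.80, SE 0.08, edgeR adjusted p = 6.58e-09). The other tested neighbours of A2ML1, RIMKLB (0.81) and M6PR (0.86), were both higher. FAM71F2, the paralogue beside FAM71F1, had no counts in hESCs and 2, 1 and 3 in NMP-L cells. The gene CYB5R3 overlaps A4GALT on the same strand and had 1997, 2328 and 2241 counts in hESCs and 2868, 2566 and 2616 in NMP-L cells. Antisense transcripts annotated over GRPR and A2ML1 were not analysed here, and the sources used here do not state whether counting used strand. None of the 6 genes had fractional counts, which mark reads shared between genes and were present for 8.44% of the table.

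The known partners and relatives of the 6 genes were then examined, as 14 lists that leave the members out. Together they held 133 genes, of which 98 were tested, 25 were higher, 34 were lower and 39 did not pass the threshold, with a median log2 fold change of -0.05. Over all 15517 tested genes, 26.7% were lower and 29.1% higher, which is the background for each list count below. Relative to GAPDH, 1428 of all tested genes were lower and 10027 higher. Relative to HPRT1, 5294 were lower and 1793 higher, so list counts under these scalings largely follow the shift of all genes. Scaling on GAPDH counts raised the median of all genes by 0.56 on the log2 scale, and scaling on HPRT1 counts lowered it (shift -0.30). Of the 59 list genes that passed the threshold, 6 changed sign relative to GAPDH and 1 relative to HPRT1.

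The relatives of AADACL3 that could be tested were not lower. Of 8 carboxylesterase-like hydrolases, 4 had enough reads and each of these rose (median log2 fold change 0.49), though none passed the threshold relative to HPRT1, 2 passed with DESeq2, with the replicate block or without hESC replicate 1, NMP-L replicate 1 or NMP-L replicate 2, and 1 passed without hESC replicate 3. CES2, a drug-metabolising esterase, rose from 12.3 ± 1.14 to 21.7 ± 0.147 TPM (SD, n = 3 each; log2 fold change 0.72, edgeR adjusted p = 1.25e-04). The others were CES3 (0.59), the cholesteryl ester hydrolase NCEH1 (0.40) and the hormone-sensitive lipase LIPE (0.40). The closest relatives were barely detected, with no counts of AADAC and AADACL2 in any library and at most 1 of AADACL4.

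Around ANGPTL4, the lists covered its targets, its relatives and its regulators. Of 13 genes of the lipoprotein lipase axis, 7 were tested, 4 were higher and 2 lower (median 0.70). LPL itself, the enzyme that ANGPTL4 inhibits, had 77, 53 and 49 counts in hESCs and 32, 30 and 30 in NMP-L cells. The LPL libraries did not overlap (log2 fold change -1.19, SE 0.24, edgeR adjusted p = 1.40e-03). LIPG, the endothelial lipase, went the other way, with 56, 51 and 48 counts in hESCs and 525, 526 and 472 in NMP-L cells (log2 fold change 3.07, SE 0.15, edgeR adjusted p = 1.87e-08). The lipoprotein receptor gene VLDLR was lower (-0.82). FURIN, a protease that cleaves ANGPTL4 and LPL, and SEL1L, which helps LPL out of the endoplasmic reticulum, were higher (0.85 and 0.70). GPIHBP1, which carries LPL onto capillaries, had no counts.

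Of 12 angiopoietin family ligands and receptors, 4 were tested, with 1 higher and 1 lower (2 higher relative to GAPDH, and 2 lower relative to HPRT1, without hESC replicate 1 or without NMP-L replicate 2). With at least 10 counts required in every library, 0 were higher. The receptor gene TEK fell from 17.5 ± 0.494 to 8.50 ± 0.0819 TPM (SD, n = 3 each; log2 fold change -1.13, edgeR adjusted p = 1.32e-06). Its ligand gene ANGPT2 had no counts in hESCs and 20, 15 and 27 in NMP-L cells. ANGPTL8, which like ANGPTL4 controls lipoprotein lipase, had no counts, and ANGPTL2 did not pass the threshold.

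Of 14 PPAR target genes, 11 were tested, 5 were lower and 2 higher (median -0.14), a split that became 2 lower and 5 higher relative to GAPDH and 5 lower and 0 higher relative to HPRT1. With DESeq2, or without hESC replicate 1, hESC replicate 3 or NMP-L replicate 1, 0 were higher as well. CPT1A, which brings fatty acids into mitochondria, fell from 35.7 ± 1.63 to 15.6 ± 2.19 TPM (SD, n = 3 each; log2 fold change -1.28, edgeR adjusted p = 3.58e-06). The lipid droplet coat gene PLIN2 (-1.03), ACADVL (-0.67) and SLC25A20 (-0.57) were also lower. PLIN4 (0.93) and HADHA (0.23) were higher, the latter with its sign turned relative to HPRT1. PDK4 had 18, 7 and 7 counts in hESCs and none in NMP-L cells, too few to be tested. Of the 6 PPAR and RXR receptor genes, 4 were tested, and PPARA was lower (-0.73) and RXRA higher (0.32). No receptor gene was lower relative to GAPDH. None was higher relative to HPRT1, without NMP-L replicate 2 or with the replicate number as a block. PPARG had 0, 4 and 1 counts in hESCs and 9, 15 and 18 in NMP-L cells, too few to be tested. RXRG, also untested, had none in hESCs and 7, 1 and 4 in NMP-L cells. With no filter beyond 1 count in total, 3 receptor genes were higher.

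Of 17 hypoxia target genes, all tested, 8 were lower, 2 were higher and 7 did not pass (median -0.35). This count depended on scaling, with 4 lower and 5 higher relative to GAPDH and 12 lower and 0 higher relative to HPRT1. EGLN3, an oxygen-sensing prolyl hydroxylase, had 1155, 1010 and 1179 counts in hESCs and 163, 207 and 170 in NMP-L cells (log2 fold change -2.85, SE 0.14, edgeR adjusted p = 2.26e-08). LDHA, lactate dehydrogenase, had 28941, 22168 and 28900 counts in hESCs and 5957, 4692 and 6105 in NMP-L cells (log2 fold change -2.49, SE 0.12, edgeR adjusted p = 1.85e-08). ANKRD37 (-2.16), PFKFB3 (-1.42), ADM (-0.90), BNIP3L (-0.69), BNIP3 (-0.65) and PDK1 (-0.61) were also lower. VEGFA (0.31) and the glucose transporter gene SLC2A1 (0.33) were slightly higher. Without NMP-L replicate 1 no gene was higher, without hESC replicate 2 there were 10 lower and 1 higher, and without hESC replicate 3, NMP-L replicate 2 or NMP-L replicate 3 there was 1 higher.

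The hypoxia list also set the hESC libraries apart. Its summed level was 2933, 2111 and 2765 CPM in hESC replicates 1 to 3 and 1369, 1273 and 1348 CPM in the NMP-L replicates. Replicate 2 was the lowest hESC library for 16 of the 17 genes, or 94.1%, against 36.8% of all tested genes. Of the 6 genes, ANGPTL4, GRPR, A2ML1 and A4GALT were also lowest there in CPM. ANGPTL4 differed little between the hESC libraries, with 192, 194 and 204 expected counts. With LDHA left out, the sums were 1389, 971 and 1257 CPM on day 0 and 1102, 1050 and 1093 CPM on day 3, and the groups overlapped. The reading by library and the sum without LDHA were chosen after the values were seen, and the part of this difference between libraries in the fall of ANGPTL4 was not tested.

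**Figure D3:**
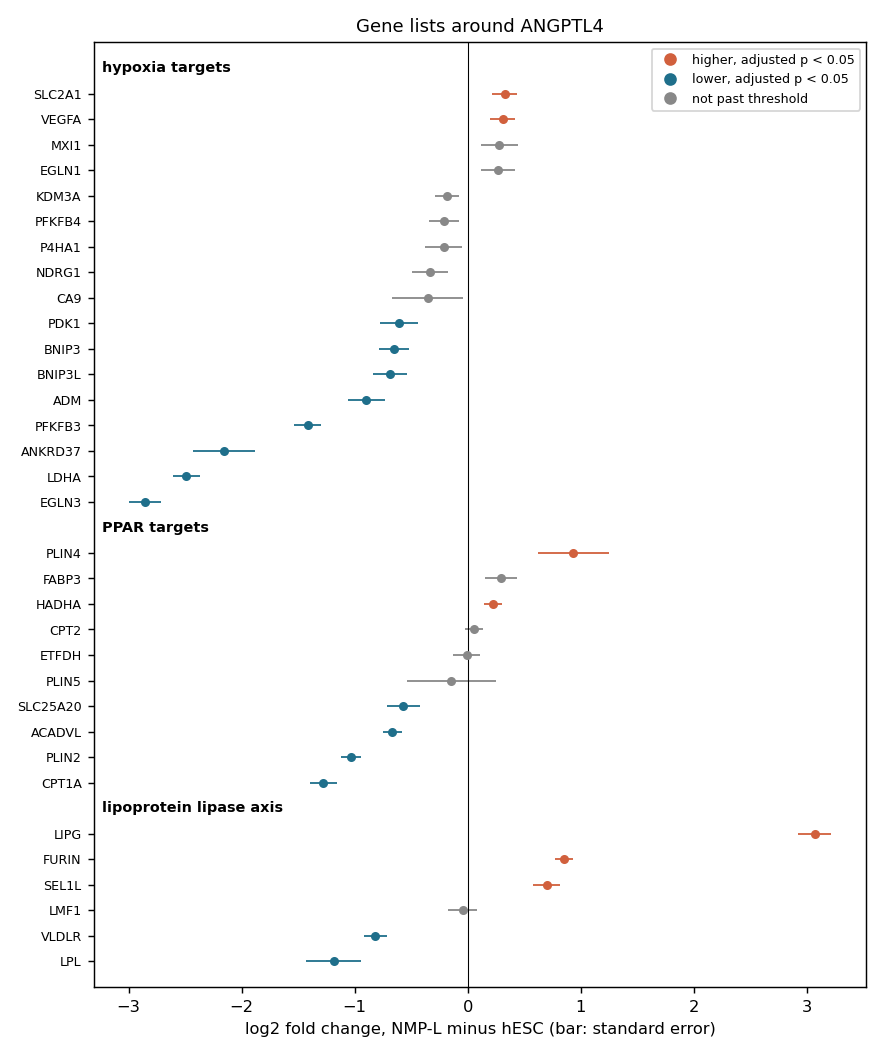
Log2 fold change (NMP-L minus hESC, x axis) with its standard error for the tested genes of the hypoxia target, PPAR target and lipoprotein lipase lists whose values are reported here, in orange where higher, blue where lower and grey where the edgeR adjusted p was not under 0.05. EGLN3 (-2.85) and LDHA (-2.49) lie farthest left and LIPG (3.07) farthest right, and relative to GAPDH the hypoxia list would read 4 lower and 5 higher, the PPAR list 2 lower and 5 higher. With that scaling, 10027 of the 15517 tested genes were higher.

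For FAM71F1, 9 genes of its family and of its RAB2 partners were listed, and 3 were tested. FAM71E1 was lower, from 15.1 ± 2.32 to 10.6 ± 1.93 TPM (SD, n = 3 each; log2 fold change -0.59, edgeR adjusted p = 0.0141), but did not pass relative to GAPDH or without hESC replicate 2, hESC replicate 3 or NMP-L replicate 3. RAB2A and RAB2B were measured at 32.9 and 21.6 TPM in hESCs and at 40.2 and 24.1 TPM in NMP-L cells and did not pass the threshold. The other 6 family genes had at most 3 counts in any library, so FAM71F1 and FAM71E1 were the family genes with sizeable expression in hESCs.

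The ligand of GRPR was barely detected. GRP, the gene of gastrin-releasing peptide, had 0, 3 and 1 counts in hESCs and 0, 2 and 1 in NMP-L cells, and the related receptors NMBR and BRS3 had at most 3. NMB, which encodes the related peptide neuromedin B, had 114, 139 and 112 counts in hESCs and 77, 64 and 56 in NMP-L cells. NMB was lower (log2 fold change -1.11, SE 0.18, edgeR adjusted p = 2.67e-04). Of 8 genes for the Gq proteins and phospholipases C through which GRPR signals, all were tested, 4 were lower and 2 higher (1 lower and 3 higher relative to GAPDH, and 1 higher without hESC replicate 3). GNA15 had 25, 34 and 36 counts in hESCs and 11, 6 and 13 in NMP-L cells (log2 fold change -1.88, SE 0.31, edgeR adjusted p = 3.51e-04). PLCB3 was lower (-0.66), as were GNA11 (-0.38) and PLCB2 (-0.37), both with the opposite sign relative to GAPDH. PLCB1 (0.80) and GNA14 (0.55) were higher, and GNAQ (0.38, edgeR adjusted p = 0.0525) did not pass.

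Of 9 genes of the A2ML1 family and its receptor, 6 were tested, 4 were lower and 1 higher (1 lower and 1 higher relative to GAPDH). Only 2 were lower without hESC replicate 3, with library-size scaling, or with limma on log2(TPM + 0.1) or log2(TPM + 1). CPAMD8 fell from 5.80 ± 0.908 to 3.08 ± 0.206 TPM (SD, n = 3 each; log2 fold change -1.06, edgeR adjusted p = 1.84e-04). LRP1, the large endocytic receptor that takes up alpha-2-macroglobulin complexes, fell from 50.8 ± 2.24 to 35.5 ± 1.46 TPM (SD, n = 3 each; log2 fold change -0.61, edgeR adjusted p = 6.14e-05). CD109 (-0.47) and complement C3 (-0.32) were lower, with the sign turned relative to GAPDH, and complement C5 was higher (1.35) from 12 counts in each hESC library. A2M itself had 11, 5 and 8 counts in hESCs and 0, 1 and 3 in NMP-L cells and was not tested. At 14.4 TPM in hESCs, A2ML1 stood above A2M (0.183 TPM), PZP and CPAMD8.

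Around A4GALT, transcripts of the genes for globo-series synthesis did not move in 1 direction with TMM scaling. Glycolipids themselves were not measured here. Of 10 genes, all tested, 3 were lower, 2 higher and 5 did not pass (median -0.01), which became 0 lower and 6 higher relative to GAPDH and 3 lower and 0 higher relative to HPRT1. Without hESC replicate 3 only 1 was higher. B4GALT6, which makes the lactosylceramide that A4GALT uses, had 888, 571 and 728 counts in hESCs and 379, 367 and 498 in NMP-L cells (log2 fold change -1.05, SE 0.16, edgeR adjusted p = 1.78e-04). B4GALT5, with the same activity, was higher in level, at 71.3 TPM in hESCs and 60.6 TPM in NMP-L cells (log2 fold change -0.33, opposite in sign relative to GAPDH). Downstream of Gb3, B3GALNT1, which makes Gb4, rose from 3.45 ± 0.404 to 5.37 ± 0.599 TPM (SD, n = 3 each; log2 fold change 0.50, edgeR adjusted p = 0.0119). B3GALT5, which makes the SSEA-3 structure, rose from 9.50 ± 2.53 to 15.9 ± 1.47 TPM (SD, n = 3 each; log2 fold change 0.65, edgeR adjusted p = 6.29e-03). ST3GAL2, which adds the sialic acid of SSEA-4, was at 15.9 TPM in hESCs and 16.5 TPM in NMP-L cells and did not pass. GBGT1, also on this list, was lower (-0.72).

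The other glycolipid branches were examined likewise. Of 9 ganglio- and lacto-series genes, all tested, 4 were lower and 1 higher, with a median of 0.17 (1 lower and 4 higher relative to GAPDH, 2 lower with DESeq2, and 3 higher without hESC replicate 1). The sialyltransferases ST8SIA5 (-2.01), ST8SIA1 (-1.25) and ST3GAL5 (-0.62) were lower, as was FUT4 (-0.86), which makes the Lewis x epitope, and B4GALT1 was higher (0.66). Of 8 genes of ceramide supply and of proteins that assist Gb3 synthesis, only KDSR passed the threshold (0.45), but 6 were higher relative to GAPDH, 2 were lower relative to HPRT1 and 2 were higher without hESC replicate 1. TM9SF2 (0.05) and LAPTM4A (-0.19), which are needed for Gb3 synthesis, did not pass. Of 6 genes for lysosomal breakdown, 4 were higher and none lower (median 0.81), with 6 higher relative to GAPDH and 3 relative to HPRT1. HEXA had 891, 1022 and 956 counts in hESCs and 2280, 2156 and 2121 in NMP-L cells (log2 fold change 0.97, SE 0.09, edgeR adjusted p = 3.89e-06). GALC was also higher (0.69). GLA, which removes the galactose that A4GALT adds, did not pass.

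**Figure D4:**
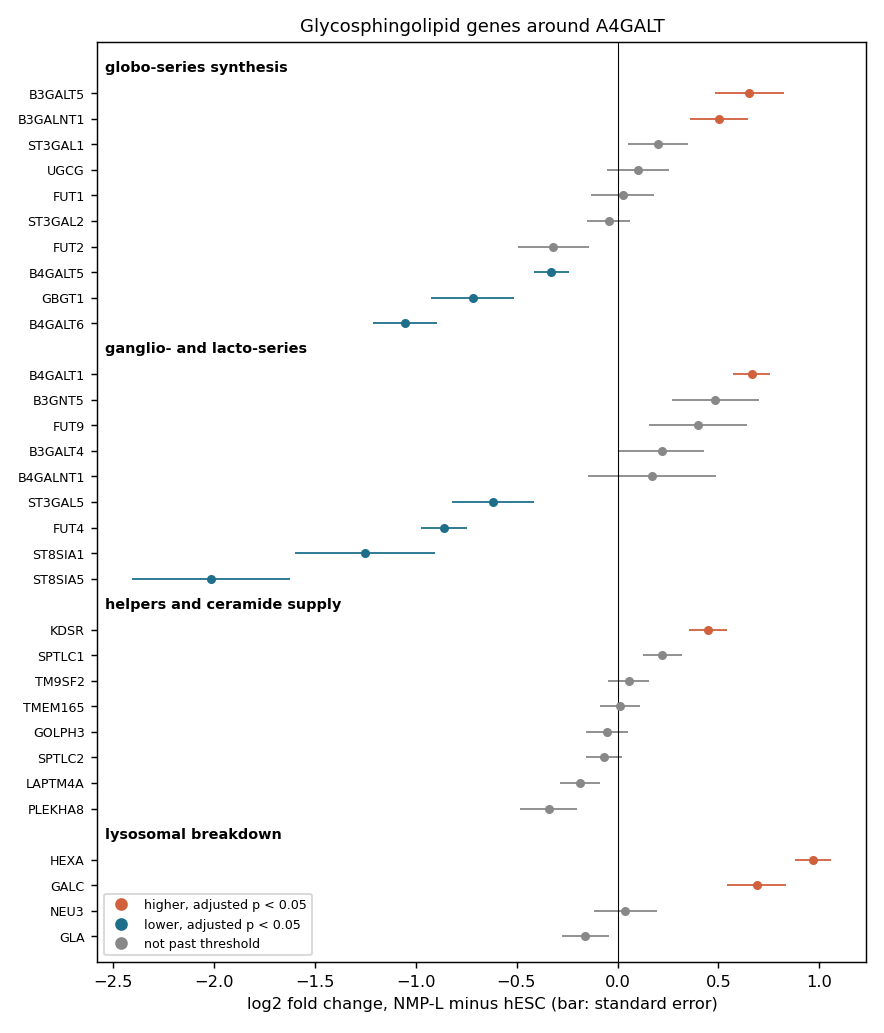
Log2 fold change (NMP-L minus hESC, x axis) with its standard error for the tested genes of 4 glycosphingolipid lists whose values are reported here, coloured as higher (orange), lower (blue) or not past an edgeR adjusted p of 0.05 (grey). Of the breakdown genes shown, HEXA (0.97) lies farthest right, and synthesis genes lie on both sides of 0, and relative to GAPDH the globo-series list would read 0 lower and 6 higher. With that scaling, 10027 of the 15517 tested genes were higher.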

How the data were processed

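The authors deposited 1 table for the 6 libraries, with RSEM expected counts per gene, not normalized between libraries, and TPM values, scaled by effective transcript length to a total of 1000000 per library. Per the submitters' processing notes, cutadapt 1.9.1, STAR 2.5.2a, RSEM 1.3.0 and DESeq2 1.12.3 were used with build hg19, and the annotation is not given in the sources used here. RSEM divides reads that fit several genes between them, which can move counts of near-identical genes. All 12 sample columns were mapped from their titles, and 0 were unused.

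The 6 genes and the lists of related genes were chosen with earlier results of these data known. Rounded expected counts were fitted with edgeR 4.0.16 under R 4.3.3 (filterByExpr with a minimum count of 10, TMM, glmQLFit and glmQLFTest for condition), with Benjamini-Hochberg adjustment over 15517 genes and 0.05 as the threshold. The model has 3 libraries per group, and the spread is that between these cultures. Standard errors (SE), also in the figures, are approximate. Each is the absolute log2 fold change divided by the square root of the quasi-likelihood F statistic. The pipeline was first tested on simulated counts. Alternatives were RLE, upper-quartile and library-size scaling, scaling on GAPDH or HPRT1, DESeq2 1.42.0, other filters, limma 3.58.1 on log2(TPM + 0.1) and log2(TPM + 1), a replicate block and leaving out each library. Same-numbered replicates did not deviate together. Named genes are the 6 members, list genes, the 3 genes most like each member, the genes next to each in the ranking of falls, chromosome neighbours, markers, GAPDH and HPRT1. A few listed genes are left unnamed, though the counts and medians of their lists include them. Positions and promoters are on GRCh37, and FAM71F1 was matched to GARIN1B as an older symbol. Tables and plots were made with Python 3.11.15, pandas 2.3.3 and matplotlib 3.10.9.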

Additional observations from a re-analysis of the deposited data

How the results depend on the processing

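No fold change of the 6 genes changed direction in 99 recalculations, and 86 of these moved by less than the spread between replicates. That spread is the square root of the summed variances of log2(CPM + 0.1) in both groups. It was wide for the 4 steep falls (0.440 to 0.568). Every recalculation drew on the libraries whose falls chose the genes, so these figures describe dependence on processing and are no independent support for the falls. Relative to GAPDH, which was itself lower in NMP-L cells (log2 fold change -0.55, edgeR adjusted p = 1.44e-04), the log2 fold change was -5.89 for AADACL3, -4.65 for FAM71F1, -1.72 for A2ML1 and -0.92 for A4GALT, with 1428 genes lower and 10027 higher, and 12 list genes lower and 52 higher. Relative to HPRT1 (log2 fold change 0.28, edgeR adjusted p = 0.0689) it was -2.58 for A2ML1 and -1.78 for A4GALT, with 1793 genes higher and 9 list genes higher. The cause of these differences was not tested. With at least 10 counts required in every library, 3 of the 6 genes were left, since AADACL3, ANGPTL4 and FAM71F1 have NMP-L libraries under that count. On log2(TPM + 0.1), limma gave -5.31 for AADACL3 and -4.67 for ANGPTL4. On log2(TPM + 1), which compresses low levels, it gave -2.94 for AADACL3, -3.18 for ANGPTL4, -3.34 for FAM71F1, -3.72 for GRPR and -1.86 for A2ML1. The summed hypoxia genes in NMP-L cells were 51.1% of the hESC mean, and 89.7% without LDHA.

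Leaving out each library in turn gave log2 fold changes of -6.68 to -6.19 for AADACL3 (the former, without NMP-L replicate 3, is a bound computed against 3 counts, since no library left had more), -5.84 to -5.06 for ANGPTL4, -5.68 to -5.00 for FAM71F1, -5.17 to -4.73 for GRPR, -2.35 to -2.20 for A2ML1 and -1.54 to -1.41 for A4GALT, and all 6 genes stayed at least 2-fold lower. Genes that differed numbered 7255 to 8891, with 3574 to 4360 lower and 3681 to 4531 higher, and list genes 30 to 34 lower and 18 to 25 higher. No source states that replicate numbers pair the samples, and deviations of same-numbered samples correlated at -0.37, -0.06 and -0.13. With the replicate block, 7560 genes differed and 3644 were lower. Depth limits AADACL3 most, with 11 NMP-L reads.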
